A study of Mus musculus with 8 samples.

Results

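The comparison is the change in RNA levels that mouse embryonic stem cells underwent over 6 days in N2B27 medium, measured by RNA-seq in 46C cells labelled wild type (WT) and in 46C cells labelled as a Dip2c knockout (KO). Its members are 4 of the 8 libraries of the series, chosen by their labels: a WT and a KO library at day 0 and a WT and a KO library at day 6, paired within genotype. The other 4 libraries are the same genotypes at day 0 and after 4 days in a medium named KSR, and they enter the fit and the comparison of the media. The day 0 cells were grown in stem cell medium, and the N2B27 and KSR experiments each have their own day 0 libraries. Each genotype and condition is 1 library, so the WT and the KO library stand as the 2 samples of a side. No label says whether the libraries come from separate cultures, and p-values measure only the spread between these samples, which may be technical. The sources used here do not say how Dip2c was deleted or whether the KO line is 1 clone. 46C is known as an embryonic stem cell line with a green fluorescent protein reporter placed in the Sox1 gene, so Sox1 itself may be read from a single allele.

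Before the results, the labels were checked against the files. The WT day 6 library is headed day 7 in the table and titled day 6, and 4 samples carry a description that belongs to a different library by its title, so titles were followed throughout. Dip2c RNA was present in the libraries labelled KO, at 2.91 FPKM (sequenced fragments scaled by transcript length and library size) at day 0 and 4.43 at day 6, against 2.74 and 5.78 in the WT libraries, so the gene's total level does not show the deletion. Y-linked genes were listed at 0 in all libraries labelled KO and above 0 in all WT libraries, so the genotypes also differ in Y-linked RNA. The 2 genotypes are used below as the pair whose shared change is described, and no result rests on the deletion. FPKM summed to between 509344 and 637117 per library and 13451 to 14335 genes reached 1 FPKM. Read numbers are unknown, because the table holds no counts.

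N2B27 is a serum-free medium that carries no leukaemia inhibitory factor (LIF), bone morphogenetic protein or serum of its own, and embryonic stem cells plated in it leave self-renewal and become mostly neural progenitors. Autocrine fibroblast growth factor (Fgf4) drives the exit from the naive state, and cells then pass through an epiblast-like stage before Sox1, Pax6 and the Notch targets of the neural tube appear. Progenitors that escape lateral inhibition by Notch express proneural factors of the basic helix-loop-helix family and become neurons.

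The promoters of genes at both ends of the change are printed, because they show the sequences from which the largest rise and fall were read out. They run from 250 bases before to 50 bases after the start of each gene, 5′ to 3′ on the gene's own strand, in the RefSeq annotation of GRCm38.p6, and capitals mark the letters of the motifs found. The genes are the 3 with the largest rise and, of those that fell most, the 3 leading genes that had an entry in the table. Rpl10l, which fell more than Spp1 and Nanog, was left out by hand as a near copy of Rpl10. Fabp7 lies at chr10:57784673-57784972 (plus strand), Ptn at chr6:36810130-36810429 (minus strand) and Zic1 at chr9:91365719-91366018 (minus strand). Crxos lies at chr7:15882367-15882666, Spp1 at chr5:104434861-104435160 and Nanog at chr6:122707239-122707538, all on the plus strand.
Fabp7: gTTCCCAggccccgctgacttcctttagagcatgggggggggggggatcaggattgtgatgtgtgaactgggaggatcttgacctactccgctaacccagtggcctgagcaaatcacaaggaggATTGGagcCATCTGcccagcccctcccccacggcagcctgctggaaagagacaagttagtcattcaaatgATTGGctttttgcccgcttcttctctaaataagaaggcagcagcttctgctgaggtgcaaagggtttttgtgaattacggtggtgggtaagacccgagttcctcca
Ptn: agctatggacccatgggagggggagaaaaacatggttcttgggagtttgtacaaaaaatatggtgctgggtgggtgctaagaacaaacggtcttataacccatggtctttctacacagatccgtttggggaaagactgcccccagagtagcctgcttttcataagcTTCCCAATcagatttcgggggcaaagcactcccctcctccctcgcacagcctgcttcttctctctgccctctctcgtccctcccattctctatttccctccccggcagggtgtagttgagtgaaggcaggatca
Zic1: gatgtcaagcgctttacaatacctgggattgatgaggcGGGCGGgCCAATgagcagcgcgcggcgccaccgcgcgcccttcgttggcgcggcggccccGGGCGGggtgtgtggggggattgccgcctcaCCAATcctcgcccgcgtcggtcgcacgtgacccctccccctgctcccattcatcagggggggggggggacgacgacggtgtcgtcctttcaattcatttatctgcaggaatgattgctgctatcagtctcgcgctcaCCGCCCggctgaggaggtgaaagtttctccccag
Crxos: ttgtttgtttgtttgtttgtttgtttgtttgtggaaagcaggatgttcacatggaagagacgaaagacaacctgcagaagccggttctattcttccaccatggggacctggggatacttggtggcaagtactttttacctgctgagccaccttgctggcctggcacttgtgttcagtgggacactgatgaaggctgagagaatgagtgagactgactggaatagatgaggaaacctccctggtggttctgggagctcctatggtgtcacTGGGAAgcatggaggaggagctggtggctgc
Spp1: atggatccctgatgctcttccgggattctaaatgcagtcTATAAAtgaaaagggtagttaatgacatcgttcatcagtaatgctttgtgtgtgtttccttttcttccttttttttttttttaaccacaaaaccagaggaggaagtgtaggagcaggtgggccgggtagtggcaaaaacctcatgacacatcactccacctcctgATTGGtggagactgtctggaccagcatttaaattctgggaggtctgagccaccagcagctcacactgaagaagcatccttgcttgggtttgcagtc
Nanog: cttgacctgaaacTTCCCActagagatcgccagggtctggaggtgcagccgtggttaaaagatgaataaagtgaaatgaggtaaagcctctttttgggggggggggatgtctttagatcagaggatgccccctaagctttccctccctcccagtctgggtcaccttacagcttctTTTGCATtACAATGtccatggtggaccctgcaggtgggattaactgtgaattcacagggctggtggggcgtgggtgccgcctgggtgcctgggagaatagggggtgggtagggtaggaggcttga

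The 3 promoters of rising genes differed in composition: Zic1 had 65.3% G and C and 31 CpG dinucleotides, whereas Fabp7 and Ptn had 54% and 52% with 6 CpGs each. The promoters of Crxos, Spp1 and Nanog had 50.3%, 45.3% and 54.3% G and C, with 2, 3 and 4 CpGs. Both strands were searched for the octamer (ATGCAAAT), the oestrogen-related receptor site (TCAAGGTCA), the Neurog-type E-box (CAGATG), the TATA box (TATAAA), the CCAAT box (CCAAT), the GC box (GGGCGG), the Rbpj site (TGGGAA) and the cyclic AMP response element (TGACGTCA). The octamer core (TTTGCAT) and the Sox site (ACAATG) were added after the Nanog sequence had been seen. Of 32851 RefSeq promoters, these held a match in 1.74%, 0.423%, 17.2%, 13.6%, 37.4%, 35.7%, 25.6%, 1.79%, 4.63% and 12.6%, in the same order. The Nanog promoter held the octamer core 75 bases and the Sox site 67 bases before the start, with a single base between them; this element is known from earlier work as the site bound by Pou5f1 and Sox2 together. Nanog also held the Rbpj letters 237 bases before the start. Fabp7 held the Rbpj letters 249 bases, the CCAAT box 126 and 56 bases and the Neurog-type E-box 118 bases before the start, and Ptn an Rbpj match 84 bases before it that overlaps a CCAAT box at 81. Zic1 held GC boxes 212 and 152 bases before and 17 bases after the start, and CCAAT boxes at 205 and 121. Spp1 held a TATA box at 211 and a CCAAT box at 46 bases before the start, and Crxos an Rbpj match 20 bases after it. A match is only a description of letters, and binding was not measured.

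Changes are given as the difference of log2(FPKM + 1) between day 6 and day 0, averaged over the genotypes, with the standard error (SE) of a limma fit to all 8 libraries that holds the genotypes apart. This scale understates the change of genes with low FPKM. Where a pair of FPKM values is given, the WT library stands before the KO library. A gene is said to rise or fall where its adjusted p was under 0.05, adjusted by Benjamini-Hochberg over the 15967 genes that reached 1 FPKM in at least 2 libraries. In bulk RNA, fewer cells of a type and less RNA per cell cannot be told apart.

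Of the 15967 genes tested, 4738 (29.7%) rose and 4183 (26.2%) fell between day 0 and day 6, and 2876 of the rises and 2032 of the falls were at least 2-fold on the fitted scale. Counts in the gene lists below are to be read beside these shares, and several lists lie near them. The median change of all genes was 0.039 and the median SE 0.193. Scaling all libraries to the same sum of FPKM moved the median to 0.252 and the split to 6014 rises and 3220 falls, so rises were 65.1% of the calls rather than 53.1%. The genotypes moved together: the change had 1 sign in WT and KO for 83.9% of genes, 2318 rose at least 2-fold in each and 1615 fell at least 2-fold in each. Only 30 genes moved at least 2-fold in opposite directions. None of the 8921 genes that passed had opposite signs, but the test itself makes this nearly certain. Genotypes that disagree give a smaller shared change and a larger SE, so such genes can hardly pass. Across genes the WT and KO changes had a Pearson r of 0.897, a description in which genes are not independent. Genes that rose were longer than those that fell, with a median gene length of 28.5 kb against 13.9 kb and 18.1 kb over all tested genes.

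**Figure D1:**
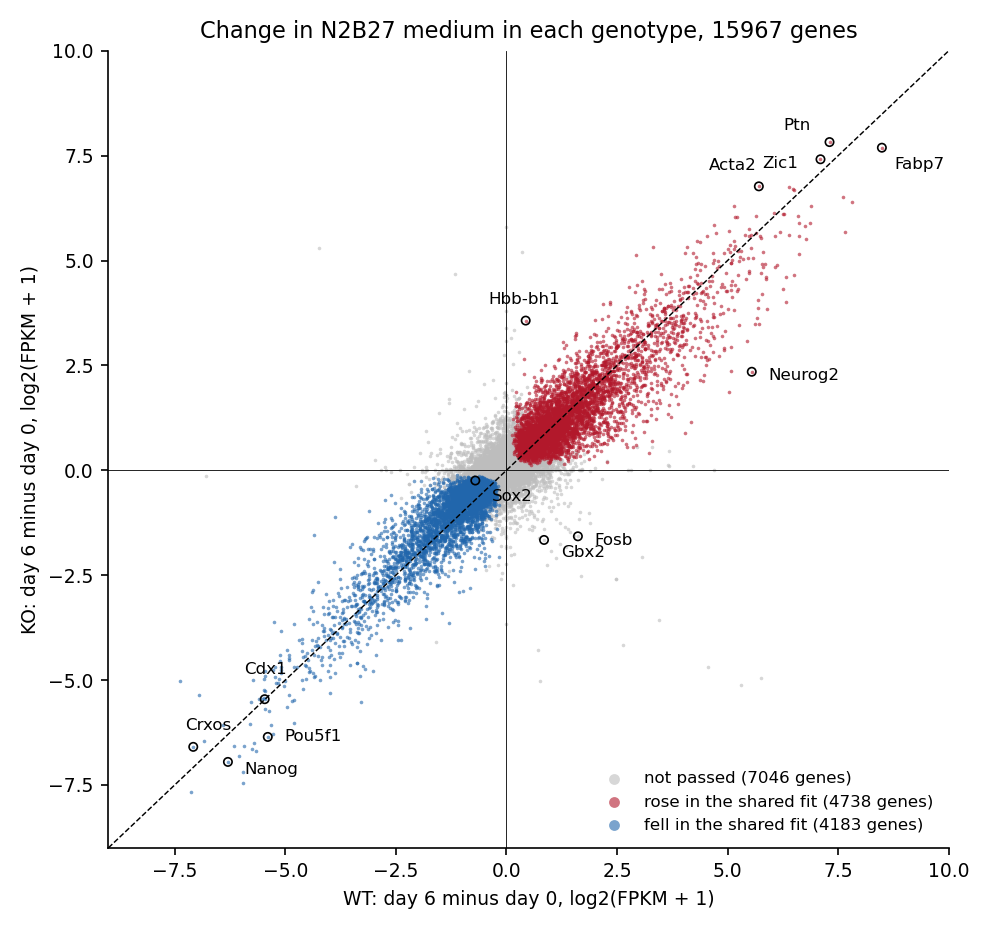
The change of each tested gene, day 6 minus day 0 in log2(FPKM + 1), in WT (horizontal axis) and KO (vertical axis), 1 point per gene, coloured by whether it rose, fell or did not pass at an adjusted p of 0.05. The 4738 rising and 4183 falling genes lie in the quadrants where both genotypes have the same sign, which the test favours. Gbx2, Fosb and Hbb-bh1 lie away from the diagonal.

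Neural progenitor genes led the largest rises. Fabp7, a brain fatty acid binding protein of radial glia, was listed at 0 and 0 FPKM at day 0 and stood at 358 and 205 at day 6, a change of 8.09 ± 0.23 (adjusted p = 6.69e-06, limma). Ptn, the secreted growth factor pleiotrophin, went from 0 and 0.0449 to 157 and 236 FPKM and Zic1, a zinc finger factor of the dorsal neural tube, from 0.0512 and 0.0956 to 143 and 186. The day 6 libraries of these 3 genes lay far above both day 0 libraries, with changes of 7.56 ± 0.21 and 7.26 ± 0.18 for the latter pair (adjusted p = 6.69e-06 and 6.69e-06). The imprinted noncoding RNA H19 went from 0.226 and 0.269 to 273 and 106 FPKM, and Nnat, an imprinted proteolipid of developing brain, from 3.17 and 3.54 to 815 and 412. The basement membrane collagens Col4a1 and Col4a2 reached 240.2 and 93.4 and 167 and 79.5 FPKM, from 0.196 and 0.845 and from 0.433 and 0.365. The orphan nuclear receptor Nr2f1 rose by 6.59, the D-type cyclin Ccnd2 by 6.59, the cell surface protein Ly6h by 6.58, the retinoic acid binding protein Crabp2 by 6.57 and the transcription factor Sox11 by 6.33. In none of these 12 genes did a day 6 library overlap a day 0 library, which follows from their choice by a large shared change.

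Genes of the embryonic stem cell state led the largest falls. The homeobox gene Crxos went from 147 and 95.5 to 0.0943 and 0 FPKM (change -6.84 ± 0.30, adjusted p = 1.30e-05), the secreted phosphoprotein osteopontin, Spp1, from 397 and 248 to 2.46 and 1.85 and Nanog, a core factor of naive pluripotency, from 331 and 292 to 3.22 and 1.36 (change -6.62 ± 0.31, adjusted p = 1.45e-05). In each the day 6 libraries lay far below those of day 0. Rpl10l fell by 6.70 on the log2 scale, but it is a near copy of Rpl10 and reads may be shared between them. Tdh, the threonine dehydrogenase on which mouse embryonic stem cells depend, went from 288 and 279.9 to 3.63 and 0.908 FPKM, and Zfp42, a zinc finger marker also named Rex1, from 374 and 248 to 4.69 and 1.21. The water and glycerol channel Aqp3, the Nodal co-receptor Tdgf1, the Akt co-activator Tcl1, the orphan receptor Esrrb, the Kruppel-like factor Klf2 and the stress response gene Nupr1 changed by -6.37, -6.26, -6.24, -6.20, -6.18 and -6.15. Their groups did not overlap either, which again follows from the choice.

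**Figure D2:**
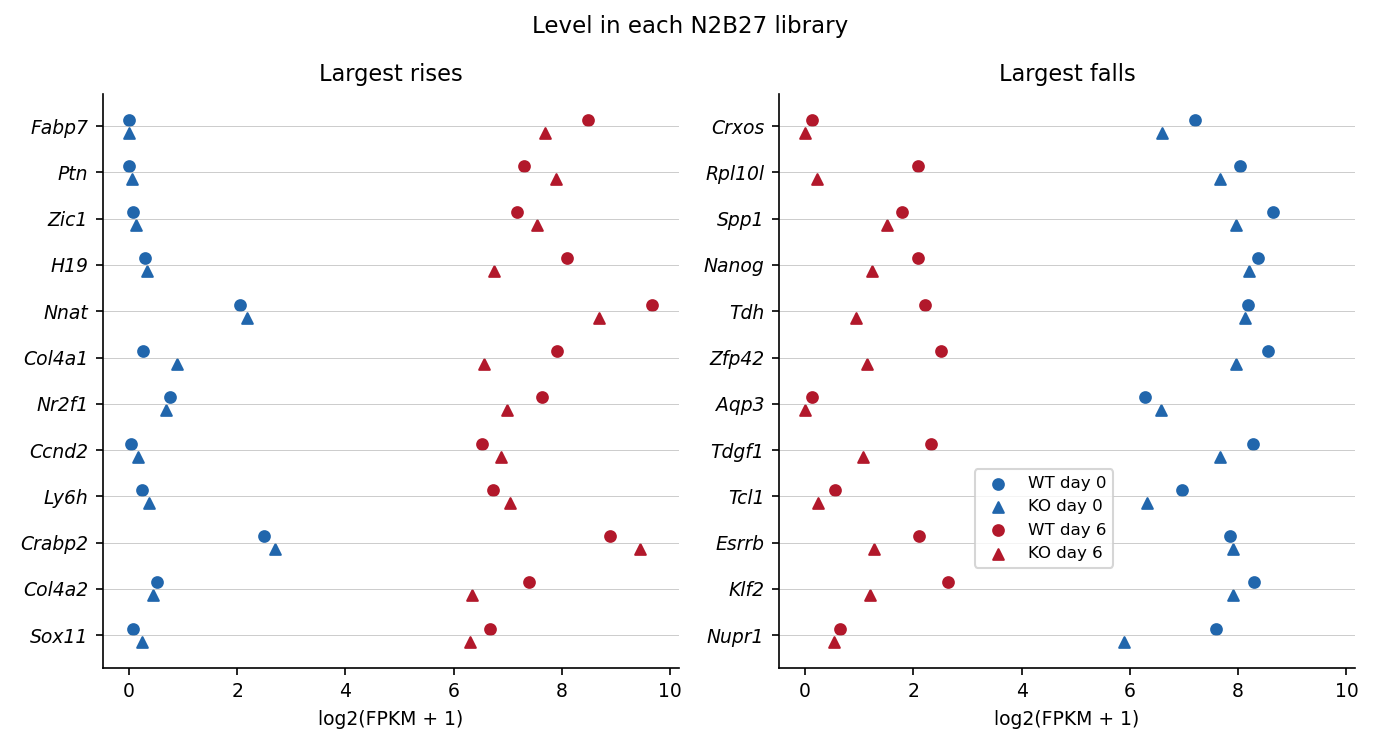
Levels of the 12 genes with the largest rise and the 12 with the largest fall, as log2(FPKM + 1) in each of the 4 N2B27 libraries, with day 0 and day 6 marked apart for each genotype. The day 0 and day 6 points do not overlap for any of the 24 genes, which follows from their choice by size of change. Fabp7 runs from 0 FPKM to 358 and 205.

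The naive pluripotency genes fell as a group. Of 21 listed genes, all of which were tested, 20 fell and 0 rose, with a median change of -4.61 against 0.039 for all genes. Besides those above, they included Dppa5a (2454 and 1928 to 62.4 and 23.7 FPKM), Tfcp2l1, a LIF-responsive factor (change -5.70), Fgf4 (-5.55) and the orphan receptor Nr0b1 (-5.14). The exception was Gbx2, a homeobox gene that serves both the naive state and the anterior hindbrain. It stood at 25.7 and 42.4 FPKM at day 0 and 47.1 and 12.7 at day 6, higher at day 6 in WT and lower in KO, with a shared change of -0.41 ± 0.51 (adjusted p = 0.523). Leaving out any 1 library or genotype pair left between 20 and 21 of the genes lower.

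Genes of pluripotency in a wider sense split. Of 15 tested, 9 fell and 3 rose, with a median of -0.89. Pou5f1, which encodes Oct4, went from 785 and 629 to 17.7 and 6.695 FPKM (change -5.88 ± 0.43, adjusted p = 6.49e-05), so the KO day 6 library was the lowest. Sox2, which pluripotent and neural cells share, stayed at 252 and 224 FPKM at day 0 and 154 and 189 at day 6, a small fall by 0.47 (adjusted p = 0.0216). The genes that rose were Lin28a (13.6 and 16.1 to 69.4 and 85.04 FPKM) and Lin28b, RNA-binding proteins that block let-7 maturation, and the Myc family member Mycn (1.33). Utf1 and Zfp281 did not pass, with changes of -1.16 and 0.15.

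Of 14 genes of the formative and primed epiblast, the stage between the naive state and lineage choice, 8 fell and 4 rose. The rises were 2 without either WT library and the falls 5 without the KO day 0 library. The Nodal pathway members Lefty2, Nodal and Lefty1 changed by -5.18, -3.98 and -2.17, and the ERK targets Etv5 and Etv4 by -2.82 and -2.38. The primitive streak gene Eomes went from 2.396 and 3.02 to 1.21 and 0.335 FPKM. The rises were Pou3f1, a POU factor also used in neural fate (2.58), the de novo DNA methyltransferases Dnmt3a (2.10) and Dnmt3b (0.47), and the epiblast growth factor Fgf5 (0.95). Otx2, of epiblast and forebrain, had a change of -1.21 ± 0.47 but did not pass (adjusted p = 0.0638).

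Neural progenitor genes rose almost without exception: 23 of 24 tested rose and Hes1 fell, with a median change of 4.82. Nr2f2 and Nr2f1, the COUP-TF receptors, changed by 6.24 and 6.59, Irx3 by 6.29 and the neural cadherin Cdh2 by 6.18. Pax6, a homeobox gene of neural tube progenitors, went from 0.0465 and 0.125 to 68.99 and 53.1 FPKM (adjusted p = 6.69e-06). Sox1 went from 3.003 and 1.91 to 42.9 and 56.95 FPKM and Sox3 from 1.88 and 1.45 to 132 and 119, and the groups did not overlap. Nes, the intermediate filament nestin, rose by 3.73 and the RNA-binding protein Msi1 by 1.91. A set of 6 progenitor markers summed to 9.86 and 6.99 FPKM at day 0 and to 637 and 464 at day 6. It is not separate from the genes named here, as it holds Sox1, Pax6, Nes, Fabp7 and Hes5. Fabp7 alone gave 358 and 205 FPKM of the day 6 sums. The sum of 6 stem cell markers, Nanog among them, was 2233 and 1810 FPKM at day 0 and 52.7 and 15.2 at day 6.

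**Figure D3:**
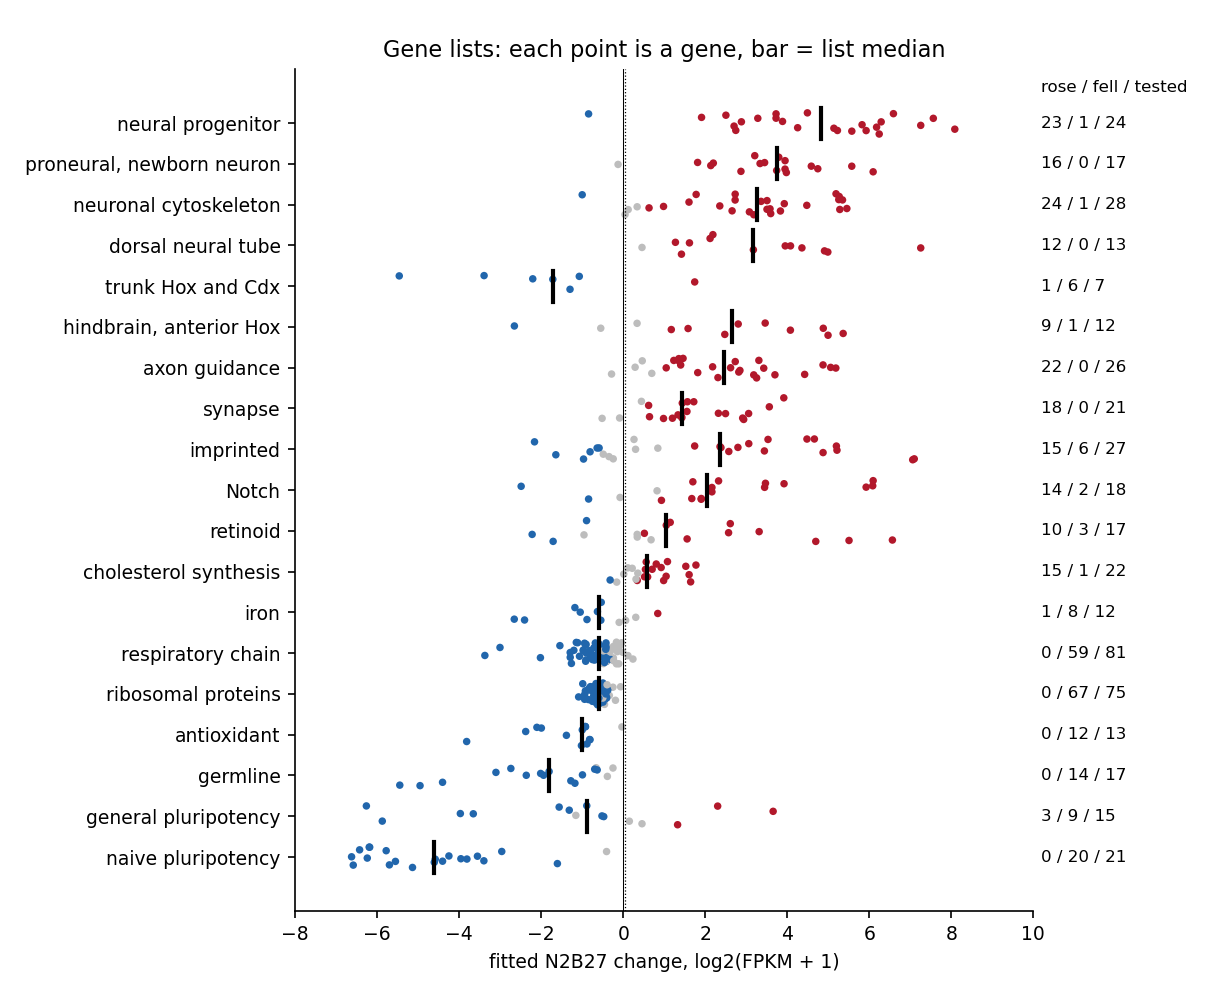
The fitted change of every tested gene in 19 gene lists, in log2(FPKM + 1), with the list median as a bar and the numbers that rose, fell and were tested at the right. Naive pluripotency genes lie at the low end (0 rose, 20 fell) and neural progenitor genes at the high end (23 rose, 1 fell).

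Notch pathway genes accompanied the progenitor genes. Of 18 tested, 14 rose and 2 fell, with a median of 2.03. Among the ligands, Dll1 went from 0.274 and 0.183 to 124 and 55.6 FPKM (change 6.10 ± 0.27, adjusted p = 1.30e-05), and Dll3 rose by 3.45, Dll4 by 1.91 and Jag1 by 1.67. The receptors Notch1, Notch2 and Notch3 rose by 1.70, 2.16 and 1.90, and Lfng, the glycosyltransferase that tunes them, by 3.92. Of the targets, Hes5 went from 0.0642 and 0.0599 to 76.04 and 53.1 FPKM, whereas Hes1 went from 77.4 and 59.6 to 48.01 and 29.1. Hes5 was thus high at day 6 only, in both genotypes, and Hes1 was lower at day 6 in both. Dtx4 rose by 6.09 and its relative Dtx1 fell by 2.49 on the log2 scale, and Rbpj, the DNA-binding partner of cleaved Notch, did not pass (change -0.08).

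Proneural and newborn neuron genes rose in both genotypes and further in the WT library. Of 17 tested, 16 rose and 0 fell, with a median of 3.74, and of 4.39 in WT and 2.94 in KO. Neurog2, a proneural factor, went from 0.0332 and 0 to 47.3 and 4.09 FPKM, so that WT stood above KO at day 6. Insm1, Nhlh2 and Nhlh1, factors of newly formed neurons, rose by 4.75, 4.59 and 3.98. The RNA-binding proteins Elavl3 and Elavl4 rose by 3.79 and 3.95, and Elavl2 did not pass (change -0.13). Genotype and library cannot be told apart at 1 library each, so the WT and KO sizes are given without a test.

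Neuronal cytoskeleton and growth cone genes followed, with 24 of 28 tested rising, 1 falling and a median of 3.27 (3.83 in WT and 2.54 in KO). Dpysl3 and Crmp1, collapsin response mediators, changed by 5.46 and 5.35, and Gap43, of growing axons, went from 0.225 and 0.128 to 92.1 and 21.5 FPKM. Dcx, doublecortin of migrating neurons, went from 0 and 0 to 21.7 and 4.69 FPKM (change 3.51 ± 0.53, adjusted p = 0.00155). Stmn2, a microtubule regulator often used to mark neurons, went the other way, from 90.1 and 69.7 to 71.99 and 21.1 FPKM (change -1.0 ± 0.36, adjusted p = 0.04998), close to the threshold. It was lowest in the KO day 6 library, while the WT day 6 library lay within the day 0 range. Tubb2a, Kif5a and Mapt did not pass, with changes of 0.34, 0.04 and 0.12. The summed level of 8 neuron markers was 91.5 and 70.9 FPKM at day 0 and 229.5 and 74.7 at day 6, and 7 of these genes rose while Stmn2 fell. The KO sums of both days were close, and the WT day 6 sum was the highest. Stmn2 made up 90.1 and 69.7 FPKM of the day 0 sums, so the sums hide the rise of the other markers in KO. The median change of the 8 markers was 4.1 in WT and 2.34 in KO.

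Synapse genes were measured at lower levels, and 18 of 21 tested rose and 0 fell, with a median of 1.44. The vesicle protein Syp went from 0.1401 and 0.183 to 15.02 and 3.78 FPKM, Snap25, of the fusion machinery, from 0.0352 and 0.0803 to 12.4 and 3.89, and the postsynaptic scaffold Dlg4 from 0.621 and 1.39 to 21.1 and 23.6. Syn1, Rab3a and Nlgn3 did not pass. Of 26 axon guidance genes, 22 rose and 0 fell, with a median of 2.46; among receptors, Robo3, of commissural axons, went from 0.174 and 0.152 to 68.9 and 15.6 FPKM and Dcc, the netrin receptor, rose by 3.43, while among ligands Efnb2 rose by 5.19 and Slit1 by 4.43 and Ntn1 did not pass (0.29). Of 16 transmitter receptor genes 12 rose and Grin1, the obligate NMDA receptor subunit, fell, from 28.4 and 14.2 to 1.79 and 0.664 FPKM. Of 14 voltage-gated channel genes 10 rose and 2 fell, led by the T-type calcium channels Cacna1g (4.89) and Cacna1h (4.05).

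Genes that set a neuron's transmitter gave few calls. The vesicular glutamate transporter Slc17a6 went from 0 and 0 to 6.47 and 1.76 FPKM, while Slc17a7 did not pass. Gad1, which makes GABA, fell by 0.97 on the log2 scale, and the vesicular GABA transporter Slc32a1 did not pass. Of 8 listed cholinergic and motor neuron genes 3 were tested. Of these 2 rose, among them the vesicular acetylcholine transporter Slc18a3 (0.0303 and 0 to 3.37 and 0.995 FPKM), and Isl1 did not pass (0.94). All 3 were under 1 FPKM in every day 0 library, so they entered the test through later libraries and could hardly fall. Chat and the other untested genes were under 1 FPKM in both day 6 libraries. Of 11 listed monoamine neuron genes 5 were tested. Of these 4 rose, Th among them (0 and 0.0829 to 3.91 and 1.77 FPKM), and Ddc fell. Th, Slc18a2 and Nr4a2 were likewise under 1 FPKM in every day 0 library.

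RNA-binding proteins of neural splicing rose in 13 of 20 cases and fell in 2, with a median of 1.28. Celf3 went from 0.248 and 0 to 61.99 and 11.4 FPKM, and Srrm4, which includes neuronal microexons, Rbfox3 and Nova1 rose by 2.45, 2.41 and 1.95. Ptbp2 rose by 1.88, while its non-neural relative Ptbp1 did not pass (0.08) and Ptbp3 fell. Of the epithelial splicing factors, Esrp2 fell by 1.41 and Esrp1 rose by 1.21. In the BAF chromatin remodelling complex, which exchanges subunits as neurons form, 9 of 16 genes rose and 2 fell. The progenitor subunit gene Actl6a went from 90.8 and 87.4 to 69.5 and 65.1 FPKM, and its neuronal counterpart Actl6b from 0 and 0 to 6.76 and 0.471, without passing (change 1.76 ± 0.65, adjusted p = 0.0551); the ATPase Smarca2 rose by 3.90.

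Among genes that mark position along the neural tube, most of the tested dorsal and hindbrain genes rose. Of 13 tested dorsal neural tube genes 12 rose and 0 fell, with a median of 3.17. Pax3 went from 0.0695 and 0.0169 to 44.9 and 22.9 FPKM and Pax7 from 0.089 and 0 to 11.2 and 24.6, both listed near 0 at day 0. Msx3 and Msx1, homeobox genes of the dorsal tube, rose by 4.91 and 4.36, the dorsal interneuron factor Olig3 by 3.95 and the roof plate signal Wnt1 by 3.17 (0 and 0.0575 to 5.63 and 12.01 FPKM). Pax3, Pax7 and Msx1 also mark neural crest, and among 10 tested neural crest markers of 12 listed, 7 rose and 2 fell; their sum was 56.1 and 56.1 FPKM at day 0 and 170.3 and 107 at day 6. Twist1 and Tfap2b rose by 1.51 and 4.43, Foxd3 and Ngfr fell, and the defining gene Sox10 was under 1 FPKM in both day 6 libraries. The part of neural crest cells in the dorsal rise was not tested.

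Of 12 tested genes of the hindbrain and the anterior Hox clusters 9 rose and 1 fell, with a median of 2.64. Hoxb2 went from 0.143 and 0.0212 to 36.4 and 52.02 FPKM and Hoxa2 from 0.387 and 0.281 to 36.99 and 39.6, and Hoxb3, Hoxb1 and Hoxa3 rose by 4.08, 3.46 and 2.81. Hoxc4 fell, and Egr2, of hindbrain segments, did not pass (0.34). Of 28 listed trunk Hox and Cdx genes 7 were tested, of which Hoxb8 rose (0.673 and 0.256 to 3.34 and 4.44 FPKM) and 6 fell. In both day 6 libraries 25 of the 28 were under 1 FPKM. Tested genes among these 25 entered through other libraries and could hardly rise. Hoxb2 and Hoxa2 were under 1 FPKM in both day 0 libraries and could hardly fall, so the counts of the lists are not set against each other. Cdx1, a caudal factor, went from 45.2 and 44.8 to 0.0433 and 0.0435 FPKM, and Hoxc13, Hoxb9 and Hoxc10 fell by 3.39, 2.21 and 1.72 on the log2 scale. The remaining trunk genes did not reach 1 FPKM in 2 libraries.

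Of 18 listed forebrain genes 8 were tested, of which 3 rose and Hesx1 fell. These counts, and those of the midbrain-hindbrain boundary that follow, stand beside 29.7% of all tested genes rising and 26.2% falling. The forebrain rises were 5 when scaled to a common sum, with no genotype block or without the variance trend, and 1 without the WT pair. Sp8 went from 0.356 and 0.788 to 23.9 and 12.8 FPKM, while Lhx2 and Fezf2 did not pass (0.19 and 0.50). Of 10 tested genes of the midbrain-hindbrain boundary 4 rose, 2 without the KO day 0 library, and 2 fell, with 4 falls without the WT day 6 library and 1 without any 1 of the other N2B27 libraries. Fgf15 and Pax2 rose by 3.43 and 1.79, Fgf17 and En2 fell by 3.05 and 1.13, and Fgf8 did not pass, at 0.522 and 1.16 FPKM at day 0 and 1.19 and 1.19 at day 6.

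Among 17 ventral neural tube and Hedgehog genes 8 rose and 3 fell, with a median of 0.83, and 5 rose without the WT day 0 library. That median was 0.54 without the WT day 0 library and 0.41 without the WT day 6 library. The progenitor factor Dbx1, of the intermediate tube, went from 0 and 0 to 48.1 and 10.2 FPKM, Foxa2, of floor plate and endoderm, from 0.299 and 0.134 to 31.96 and 9.38, and Nkx6-1 rose by 2.56; all were higher in WT. The ligand gene Shh went from 0.0757 and 0.0235 to 2.41 and 0.778 FPKM. The pathway targets Gli1 and Ptch1 did not pass (1.16 and 1.71 in WT, -0.82 and 0.03 in KO), Gli2 fell, and Gli3, whose product represses Hedgehog targets, rose by 4.10.

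**Figure D4:**
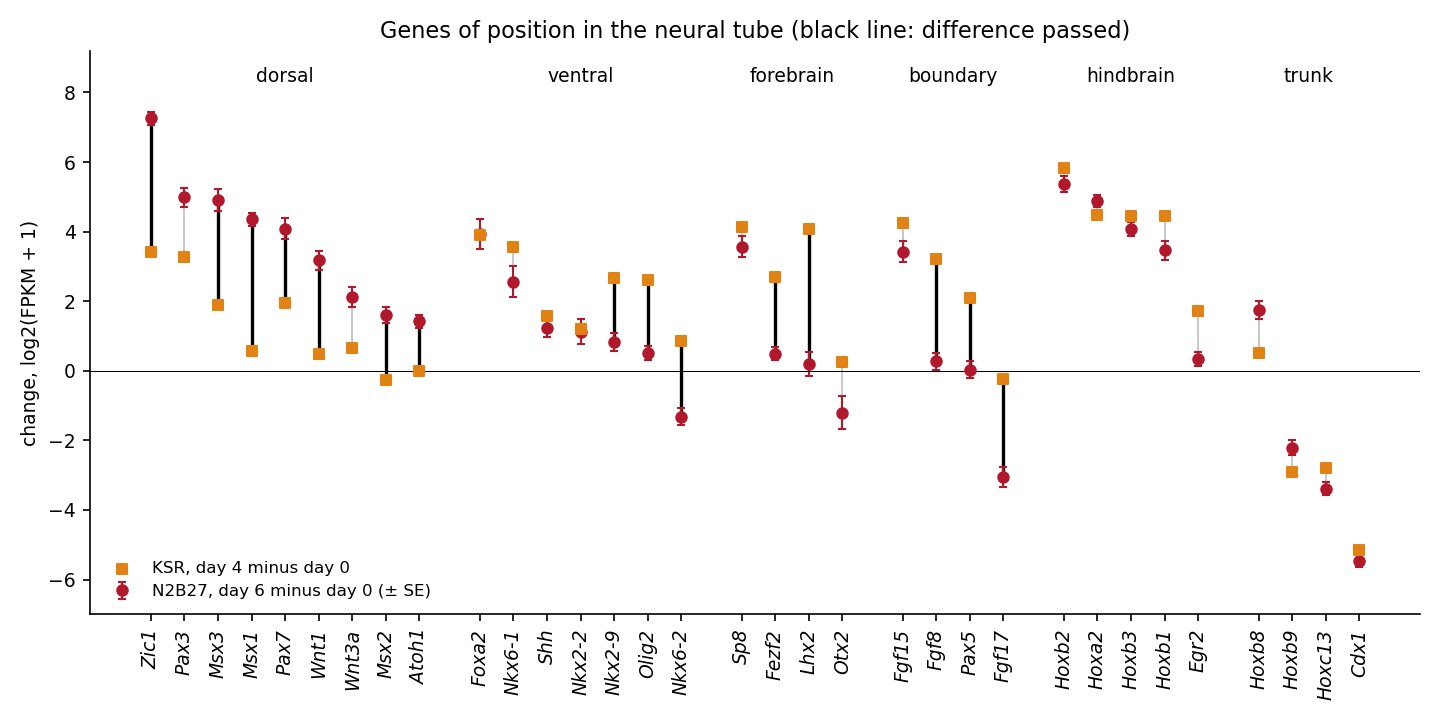
Fitted changes in N2B27 (day 6 minus day 0, ± SE) and in KSR (day 4 minus day 0) in log2(FPKM + 1) for genes of the dorsal and ventral tube, forebrain, midbrain-hindbrain boundary, hindbrain and trunk, with a black line where the difference between the media passed. Dorsal genes such as Zic1 and Msx1 lie higher in N2B27 and forebrain genes such as Fezf2 and Lhx2 lie higher in KSR. Msx1 reached 1 FPKM only at N2B27 day 6 and Fezf2 only at KSR day 4.

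Set against the change over 4 days in KSR, measured in 4 other libraries, 279 genes (1.75% of those tested) changed more upward in N2B27 and 354 (2.22%) more downward, at an adjusted p of 0.05 for the difference. The medium and the number of days cannot be told apart. These counts are fragile: without the WT day 0, WT day 6, KO day 0 or KO day 6 library in N2B27 they became 0, 35, 0 and 314 upward and 1, 31, 1 and 225 downward, and they were 0 without either genotype's N2B27 pair and at most 13 without either genotype's KSR pair. Scaling to a common sum gave 419 upward and 277 downward. Of all these genes, 514 also passed in N2B27 itself.

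Position genes were among the differences. Of the dorsal genes 7 of 13 changed more upward in N2B27 and 0 more downward: Zic1 stood at 10.02 and 9.97 FPKM at KSR day 4 (difference 3.84 ± 0.26, adjusted p = 0.00643), and Msx1, Msx3, Wnt1, Pax7, Msx2 and Atoh1 had differences between 1.43 and 3.80. Msx1, Wnt1 and Atoh1 were under 1 FPKM in every library outside N2B27 day 6, so the filter favoured their upward difference. The dorsal list median was 3.17 in N2B27 and 0.79 in KSR. Of the 8 forebrain genes, 3 changed more downward in N2B27 and 0 more upward. Lhx2 was at 34.1 and 22.8 FPKM at KSR day 4 (difference -3.89 ± 0.48, adjusted p = 0.0181) and Fezf2 had a difference of -2.21. Of the 10 boundary genes Wnt1, also listed as dorsal, was the 1 that changed more upward. Fgf8, Fgf17 and Pax5 changed more downward in N2B27, with differences of -2.94, -2.81 and -2.05. So did the ventral genes Nkx2-9, Olig2 and Nkx6-2, with -1.84, -2.11 and -2.17. Fezf2, Pax5 and Olig2 were under 1 FPKM in every library outside KSR day 4, so the filter favoured their downward difference.

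The 6 genes with the largest upward difference were Fosb (difference 5.0), the small heat shock protein Cryab (4.47), the annexin Anxa2 (4.30), Col4a1 (4.23), Col4a2 (3.92) and the interneuron homeobox gene Gsx1 (3.90). Fosb stood at 97.7 and 58.05 FPKM at KSR day 0 and 2.68 and 0.596 at day 4, while in N2B27 it went from 13.6 and 10.7 to 43.6 and 2.92 and did not pass, with opposite signs in the genotypes. Cryab went from 3.35 and 4.91 to 27.2 and 20.8 FPKM in N2B27 and from 10.6 and 7.44 to 0.7696 and 1.72 in KSR. The 6 largest downward differences were the fatty acid transporter Slc27a2 (-4.89), Lefty1 (-4.68), the zinc finger gene Wt1 (-4.05), the retinoic acid hydroxylase Cyp26c1 (-3.89), Lhx2 (-3.89) and the kinase gene Pim2 (-3.61). Lefty1 was at 15.8 and 30.3 FPKM at KSR day 4 against 6.87 and 1.24 at N2B27 day 6. Wt1 and Cyp26c1 were under 1 FPKM in every library outside KSR day 4, so the filter favoured their downward difference. Among progenitor genes, Fabp7, Hes5 and Vim changed more upward in N2B27, by 2.13, 2.05 and 2.42, and Sox3 more downward, with a difference of -1.12. No gene of the neuronal cytoskeleton list passed for the difference; its median was 3.27 in N2B27 and 2.42 in KSR.

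Retinoid genes were listed as well. Retinoic acid, made from vitamin A, is a posteriorising signal of the neural tube, and B27 supplement is sold with and without a vitamin A ester; the labels do not say which was used. A part of vitamin A or retinoic acid in the changes of retinoid or hindbrain genes was not tested. Of 17 retinoid genes tested, 10 rose and 3 fell, with a median of 1.05 in N2B27 and 1.44 in KSR. For the difference between the media, 0 of them changed more upward and 2 more downward in N2B27. Among binding proteins, Crabp2 went from 4.64 and 5.51 to 470.1 and 699 FPKM and Crabp1 from 48.96 and 30.2 to 842 and 1242. The degrading enzymes Cyp26b1 and Cyp26a1 rose by 5.51 and 2.61, the uptake receptor Stra6 by 3.32 and the synthetic dehydrogenase Rdh10 by 1.15. Of the receptors, Rarb and Rxra rose, by 1.05 and 1.56, and Rarg fell, from 18.7 and 16.01 to 1.84 and 4.44 FPKM. The synthetic enzyme Aldh1a3 fell by 1.71 on the log2 scale.

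FGF and Wnt lists held genes that rose and genes that fell, and most listed LIF and immediate early genes fell. Of 11 FGF receptors and ERK targets 6 rose, led by Fgfr3 (0.423 and 0.164 to 35.1 and 40.98 FPKM), Fgfr2 (4.74) and the phosphatase Dusp4 (3.97), and 2 fell, Etv5 and Etv4. Of 9 Wnt targets 4 rose and 4 fell: Nkd1 and Lef1 rose by 3.51 and 2.86, Cdx1 and Sp5 fell, and Axin2 did not pass (0.38). LIF and Stat3 genes fell in 5 of 8 cases and rose in 0, with Socs3, the feedback inhibitor, going from 72.1 and 76.4 to 7.55 and 7.07 FPKM. Immediate early genes fell in 9 of 13 cases, among them Egr1 (255 and 192 to 60.6 and 26.6 FPKM) and Fos (-2.47), whereas Jun (2.16) and Egr3 (1.23) rose.

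The collagen IV genes led the rises among matrix genes. Of 18 basement membrane and matrix genes tested 12 rose and 3 fell, with a median of 1.62. Col4a1 stood at 0.196 and 0.845 FPKM at day 0 and 240.2 and 93.4 at day 6 (change 6.67 ± 0.46, adjusted p = 5.06e-05), and at 16.8 and 19.7 at KSR day 4. Among laminins, Lamb1 went from 2.29 and 5.19 to 109.8 and 46.8 FPKM, Lama1 rose by 1.38 and Lama5 fell, and Lamc1 did not pass (0.08). The linkers Nid1 and Nid2 fell by 2.81 and 1.59 on the log2 scale. Col2a1, of cartilage and notochord, rose by 5.27, the brain proteoglycan Ncan by 3.06 and the matrix protein Tnc by 2.85.

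Markers of endoderm and of smooth muscle and fibroblasts moved alongside the matrix genes. Of 13 listed endoderm markers 9 were tested, of which 8 rose and 0 fell (4 and 5 rose without the WT and the KO day 0 library). Their sum was 4.34 and 4.05 FPKM at day 0 and 136 and 48.9 at day 6, against 8.02 and 14.1 at KSR day 4. Sox17 went from 1.29 and 0.775 to 56.9 and 21.2 FPKM and Gata4 from 0.603 and 0.643 to 24.03 and 8.43, with WT above KO, while Foxa1, Afp and Apob were under 1 FPKM in both day 6 libraries. Of 13 smooth muscle and fibroblast markers 10 were tested, 9 rose and Thy1 fell, and the sum went from 8.33 and 5.78 to 172.5 and 301.4 FPKM. Acta2, smooth muscle actin, went from 0 and 0 to 51.2 and 108 FPKM and Tagln from 0.226 and 0.106 to 42.2 and 86.6, higher in KO, whereas Postn, Lum and Dcn were under 1 FPKM in both. The part of these cell types in the rise of collagen IV, H19, Igf2 and Foxa2 was not tested.

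Other cell types gave weaker or opposite signals. Of 13 mesoderm and heart markers 5 were tested, 2 rose and 3 fell. Of 12 blood and endothelium markers 7 were tested, 2 rose and 2 fell, with Pecam1 falling by 4.75 on the log2 scale; Hbb-bh1, an embryonic globin, was at 0.351 and 10.9 FPKM at day 6 (change 0.43 in WT and 3.57 in KO). Of 5 tested trophoblast markers 4 fell (2 without the WT day 0 or either KO library) and 0 rose, of 4 tested surface ectoderm markers 3 fell and 1 rose, and of 9 tested placode and sensory markers 5 rose (3 without either WT library) and 2 fell. Of 8 glial markers 5 were tested, 2 rose and 1 fell, and Gfap was at 0 and 0.0272 FPKM at day 6. Of 7 microglia markers only Cd68 was tested, and it fell.

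Of 13 cadherin and junction genes tested 6 rose and 5 fell, 2 without the WT or 3 without the KO day 0 library and 2 without the KO day 6 library. Cdh1, E-cadherin, went from 188 and 154 to 20.1 and 7.73 FPKM (change -3.66 ± 0.42, adjusted p = 4.64e-04) and Cdh2, N-cadherin, from 0.0927 and 0.199 to 81.98 and 82.01 (change 6.18 ± 0.18, adjusted p = 6.69e-06), so each gene was high at the day at which the other was low. The tight junction gene Cldn4 fell by 4.32 and Cldn6 rose by 2.31. Of the repressors of Cdh1, Zeb2 and Zeb1 rose by 4.85 and 2.13 and Snai1 did not pass (0.16).

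Genes that answer to insulin, transferrin, selenium, progesterone, antioxidants and thyroid hormone, supplements commonly present in N2B27, were listed too. The labels do not give the composition, and a part of the supplements in these changes was not tested. List medians in N2B27 and KSR were -1.0 and -0.65 for antioxidant, -0.59 and -0.6 for iron and 1.7 and 2.07 for insulin and IGF genes. They were -0.93 and -0.78 for thyroid hormone and -0.03 and -0.84 for steroid hormone genes. Antioxidant genes fell in 12 of 13 cases and rose in 0, with a median of -1.0. Nqo1, a target of the oxidative stress factor Nrf2, went from 36.8 and 41.2 to 2.34 and 1.403 FPKM, and Sod2, Gsr and Nfe2l2, which encodes Nrf2, fell by 2.38, 2.10 and 2.0. Of 12 iron genes 8 fell, 5 without either WT library, and Tfr2 rose. Tfrc, the transferrin receptor, went from 99.3 and 175 to 22.9 and 25.4 FPKM and the reductase Steap3 fell by 2.66. Insulin and IGF genes rose in 7 of 12 cases and fell in 3, led by Igfbp5 (4.70), Igf2 (0.0291 and 0.0867 to 19.2 and 26.6 FPKM), Igfbp4 (3.50) and the adaptor Irs1 (3.08), and the inhibitor Grb10 fell by 1.64. The falls were 0 without the WT day 6 library, and 1 without any 1 of the other N2B27 libraries or when scaled to a common sum.

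Of 7 thyroid hormone genes 3 rose and 4 fell. The target Klf9 and the inactivating deiodinase Dio3 fell by 2.95 and 2.39, and the receptor Thra rose by 1.94. Of 11 steroid hormone genes 4 rose and 5 fell: Sgk1, a glucocorticoid-induced kinase, went from 200.3 and 194 to 19.4 and 5.51 FPKM and the metallothioneins Mt1 and Mt2 fell, while Tsc22d3 rose by 2.16. Cholesterol synthesis genes rose in 15 of 22 cases and fell in 1, with a median of 0.58 in N2B27 and 0.57 in KSR. The largest rise was that of Hmgcs1, an early enzyme, which went from 81.5 and 92.9 to 279.8 and 322 FPKM and the lanosterol synthase Lss rose by 1.61. Of 5 sterol export genes 4 fell, 2 without either KO library or when scaled to a common sum, and 0 rose. The apolipoprotein Apoe went from 1024 and 911 to 239.7 and 156 FPKM and the transporter Abcg1 fell by 2.50.

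**Figure D5:**
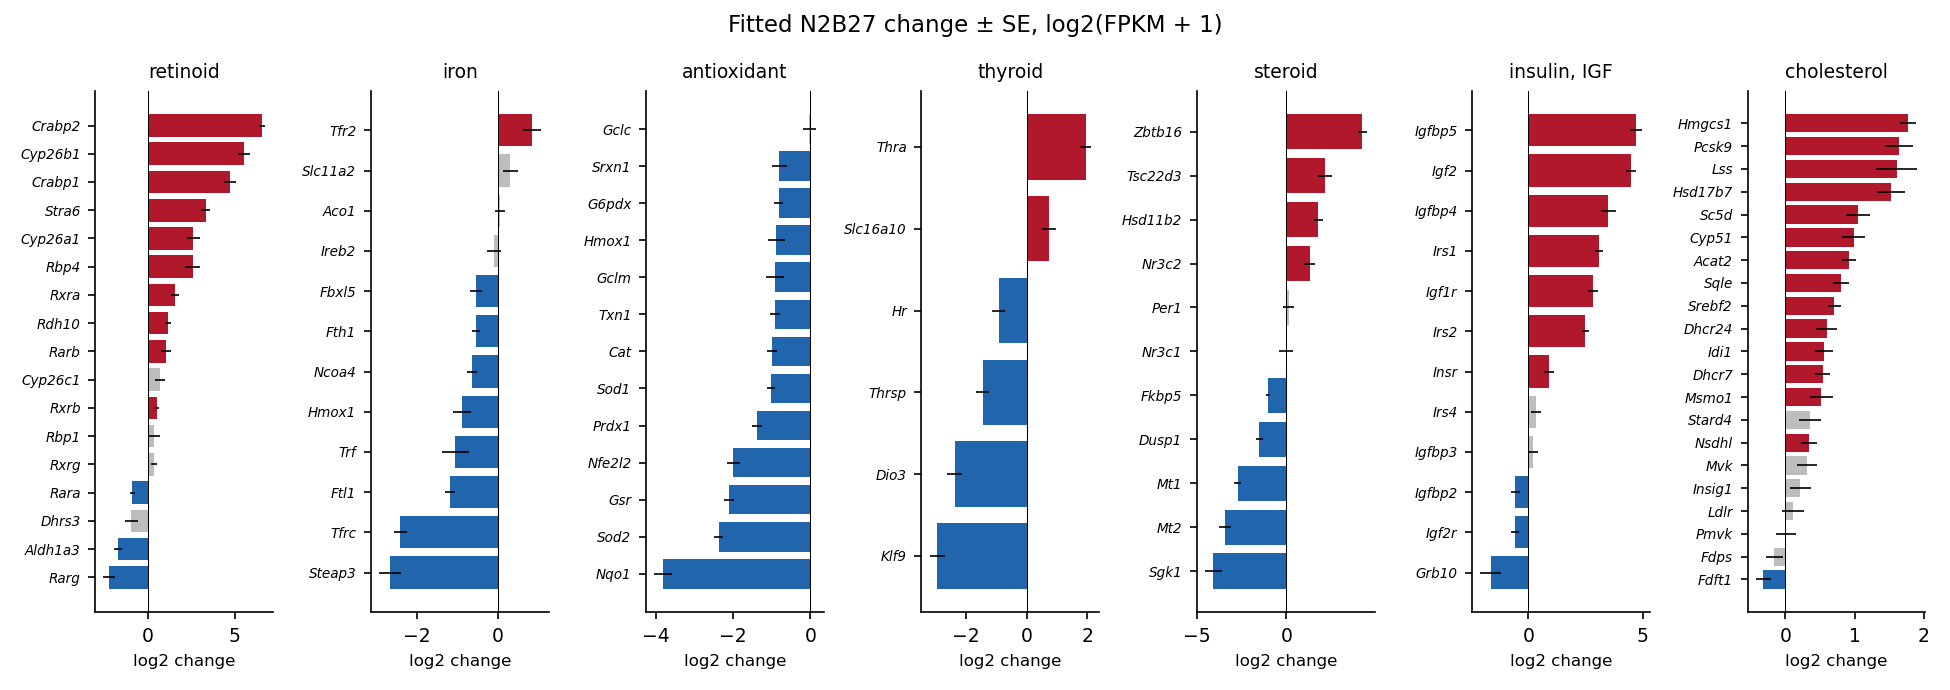
Fitted changes in N2B27 (bars, ± SE) in log2(FPKM + 1) for the genes shown of retinoid, iron, antioxidant, thyroid hormone, steroid hormone, insulin and IGF and cholesterol synthesis lists. All antioxidant bars lie below 0, 12 of 13 of them past the threshold, and most cholesterol synthesis bars lie above 0.

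Most listed genes of protein synthesis and respiration fell, with small medians. Of 75 cytosolic ribosomal protein genes 67 fell and 0 rose, with a median of -0.60 and the largest fall in Rps20 (-1.09); scaling to a common sum gave a median of -0.38 with 54 lower, and 28 fell without the WT day 6 library. Of 81 respiratory chain genes 59 fell and 0 rose, with a median of -0.58; scaled to a common sum, 44 fell and 1 rose. Cox7a1 and Cox7b2, isoforms of restricted tissues, fell by 3.37 and 3.0. Of 22 glycolysis genes 8 rose and 6 fell, beside 29.7% and 26.2% of all tested genes, and 3 rose and 4 fell with no filter on low values. The rises were 5, 3 and 2 without the WT day 0, KO day 0 and KO day 6 libraries. The isoforms Ldhb, Pfkp, Hk1 and Hk2 fell by 2.24, 2.19, 2.08 and 2.0, while Ldha (0.61), Pgk1 (0.62) and Pdk1 (1.09) rose. Gapdh did not pass (317 and 264 to 210.1 and 246 FPKM).

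Genes of the integrated stress response and serine synthesis fell in 12 of 17 cases and rose in 1, with a median of -1.07. Nupr1 went from 192 and 58.4 to 0.557 and 0.453 FPKM, Trib3 and Asns, targets of the factor Atf4, fell by 3.46 and 2.66, and Cth, of cysteine synthesis, by 3.65. The falls were larger in WT than in KO for Chac1 (-3.88 and -1.12) and Psph (-2.10 and -0.26), and Phgdh, the entry enzyme of serine synthesis, did not pass (65.4 and 33.7 FPKM at day 0 and 65.2 and 77.9 at day 6).

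Cell division genes changed little. Of 21 tested, 9 fell and 3 rose, with a median of -0.26, and scaled to a common sum 5 fell and 4 rose. Mcm3, of the replicative helicase, went from 212 and 189 to 89.1 and 96.2 FPKM, Mki67 rose by 0.92, and Top2a, Cdk1, Pcna and Plk1 did not pass. Genes of cell cycle exit and the D cyclins rose in 8 of 13 cases, 5 without either WT library, and fell in 0. Ccnd2 went from 0.0323 and 0.125 to 91.1 and 116 FPKM, the imprinted inhibitor Cdkn1c from 0.812 and 0.454 to 104 and 33.5, and Ccnd1 rose by 0.80, while Cdkn1a and Cdkn1b did not pass (-0.43 and -0.02).

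In DNA methylation, 6 of 12 genes rose, 3 without the WT day 0 or the KO day 6 library, and 3 fell. Among demethylating dioxygenases, Tet1 went from 28.4 and 53.7 to 5.48 and 6.29 FPKM, Tet2 fell by 1.65 and Tet3 went from 1.797 and 2.43 to 20.4 and 18.2, so Tet3 was the highest of the 3 changes and Tet1 the lowest. The maintenance enzyme Dnmt1 did not pass (58.01 and 66.8 FPKM at day 0 and 59.6 and 64.8 at day 6) and its partner Uhrf1 fell by 1.03. Germline genes fell in 14 of 17 cases and rose in 0, with a median of -1.81: Dazl went from 39.3 and 25.3 to 0.07603 and 0.0254 FPKM and Stra8 fell by 4.41. Of the 6 Zscan4 genes, which mark a rare state resembling the early embryo, Zscan4f fell by 0.68 and the others did not pass. Zscan4f went from 0.744 and 0.613 to 0.103 and 0 FPKM. All 6 genes were under 1 FPKM in every N2B27 library and entered the test only through KSR day 4. All 6 changed more downward in N2B27 than in KSR, where their median change was 1.36, a direction that this filter favoured. They are near copies of each other, and reads may be shared among them.

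Imprinted genes, expressed from a single parental copy, rose in 15 of 27 cases and fell in 6 (2 without the WT day 0 or either KO library), with a median of 2.36. Besides H19, Nnat, Igf2 and Cdkn1c, the rises included Mest (19.9 and 20.8 to 561 and 1100.0 FPKM), Peg10 (4.88), Sgce (4.66), Peg3 (3.53) and Dlk1 (3.06). Phlda2 and Grb10 fell by 2.16 and 1.64, and the noncoding Meg3, Rian and Mirg, of a shared domain, did not pass (-0.24, -0.35 and -0.49). Of the growth-promoting oncofetal genes 5 of 8 rose and 2 fell, with Hmga2 going from 3.402 and 1.94 to 35.7 and 65.7 FPKM and Hmga1 falling by 0.53.

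The Dip2 family encodes conserved proteins with AMP-binding domains. Dip2b went from 4.22 and 6.01 to 11.4 and 11.9 FPKM (change 1.07 ± 0.18, adjusted p = 0.0026) and Dip2c rose by 0.67 ± 0.19 (adjusted p = 0.0204). Dip2a stood at 3.04 and 3.27 FPKM at day 0 and 4.41 and 4.55 at day 6 and did not pass (change 0.40 ± 0.18, adjusted p = 0.0949). Both day 6 libraries lay above both day 0 libraries in all 3 genes, and for Dip2c the WT day 6 library was the highest. The share of all tested genes with such a separation was not counted.

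By abundance, the day 6 libraries were led by housekeeping and near-copy entries. Eef1a1, the elongation factor, took 0.773% and 0.788% of summed FPKM at day 6 against 0.852% and 0.82% at day 0. Rpl41, the chaperone Hsp90ab1, the ATP synthase subunit Atp5b and the glycolytic Aldoa were the other named genes of the 10 highest, beside Gm10443, Gm28661, Gm29216, Gm10222 and Rps7-ps3, which are named as pseudogenes or predicted genes and may share reads with other loci. Dppa5a was among the 10 highest at day 0, at 0.385% and 0.339%, and took 0.0123% and 0.00459% at day 6.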

How the data were processed

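RNA-seq was done on 8 libraries (2 genotypes in 4 conditions) from kit-extracted RNA, with SMARTer library preparation and paired-end Illumina sequencing, per the labels' protocols. STAR, Cufflinks and the mouse build mm10 were used, per the submitters' processing notes, with versions and the use of strand not given in the sources used here. The deposited table gives FPKM per gene for each library. It holds no read counts, so depth is unknown, no count test was run and no counting interval is given. Without stated strand, overlapping antisense genes cannot be told apart.

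From these values, 110 repeated entries of a symbol were summed, leaving 55078 symbols, of which 24645 were at 0 in all libraries. The 15967 genes with 1 FPKM or more in 2 or more libraries entered limma 3.58.1 (R 4.3.3) as log2(FPKM + 1), using a mean-variance trend, the 4 conditions and genotype as a block, which left 3 residual degrees of freedom. Contrasts were N2B27 day 6 minus day 0, and that change minus the KSR change. P-values were Benjamini-Hochberg adjusted over all tested genes. The same steps were tested on simulated data.

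The 55 lists, the 13 marker lists and their members (1048 in all, 888 tested) were chosen with earlier results of these data known, so list counts are descriptions. Genes named were the 12 with the largest change in each direction, with the same sign in both genotypes, a mean of 5 FPKM or more at the higher day and an established name; the 6 with the largest difference from KSR in each direction; the 10 most abundant at day 6; the Dip2 family; and from each list up to 4 leading genes, those that went against the list, and well-known members that did not pass. A few further list members were named after their values were seen. Promoters came from RefSeq tables of GRCm38.p6, which held 67.5% of the tested genes, so promoters were not compared between gene groups. Alternatives were other pseudocounts, filters, scalings, variance settings, no genotype block, N2B27 libraries alone and leaving out each library or pair. Some list members are counted but not reported here by name.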

Additional observations from a re-analysis of the deposited data

Results flagged for a closer look

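Of the genes named in the text, those below had a change in N2B27 that differed from the change in KSR by the test of the difference itself (adjusted p under 0.05, limma), in 4 libraries a side. Medium and days cannot be told apart, and the counts of such genes fell to 0 or 1 when a day 0 N2B27 library was left out. The differences are N2B27 minus KSR on the log2(FPKM + 1) scale, in the order of the genes. More upward and more downward are relative to KSR: Smad7, Egr1, Tet2, Pfkp and Nid1 fell in N2B27 but less than in KSR, and Pou3f1, Nkx2-9, Lin28a, Dnmt3b and Sox3 rose in N2B27 but less than in KSR.

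Changed more upward in N2B27 were Fosb, Cryab, Anxa2, Col4a1, Col4a2, Gsx1, Zic1 and Msx1 with 5.0, 4.47, 4.30, 4.23, 3.92, 3.90, 3.84 and 3.80. Next in size were Msx3, Sox17, Tfap2b, Jun, Wnt1, Tnc, Slit1 and Vim with 3.03, 3.02, 2.83, 2.71, 2.70, 2.62, 2.61 and 2.42. Smaller were Fabp7, Id2, Pax7, Ly6h, Fgfr3, Smad7, Hes5 and Igf2 with 2.13, 2.12, 2.12, 2.09, 2.08, 2.06, 2.05 and 1.95. There followed Dll1, Msx2, Egr1, Tet2, Cdkn1a, Sgce, Tfr2 and Lamc1 with 1.91, 1.87, 1.69, 1.59, 1.58, 1.57, 1.49 and 1.46. Next in size were Atoh1, Pgk1, Pfkp and Nid1 with 1.43, 1.20, 1.17 and 0.86. Msx1, Wnt1 and Atoh1 entered the test only through their N2B27 day 6 values.

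Changed more downward in N2B27 were Slc27a2, Lefty1, Wt1, Cyp26c1, Lhx2, Pim2, Lefty2 and Fgf8 with -4.89, -4.68, -4.05, -3.89, -3.89, -3.61, -3.38 and -2.94. Smaller differences were seen for Stra8, Zscan4f, Fgf17, Neat1, Rarg, Pou3f1 and Fezf2 with -2.93, -2.92, -2.81, -2.74, -2.56, -2.51 and -2.21. Zscan4f, Wt1, Cyp26c1 and Fezf2, and Olig2 and Pax5 below, entered the test only through their KSR day 4 values. After these came Nkx6-2, Olig2, Tfrc, Pax5, Nkx2-9, Lin28a, Gsr and Dnmt3b with -2.17, -2.11, -2.06, -2.05, -1.84, -1.52, -1.45 and -1.33. At the low end stood Nlgn3, Hmga1, Sox3, Trp53, Mcm3 and Gpx1 with -1.32, -1.13, -1.12, -0.96, -0.83 and -0.76.

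Fosb moved by 1.61 in WT and -1.57 in KO over the 6 days in N2B27, at least 2-fold in opposite directions. This difference between the genotypes was not tested, since each is 1 library a day.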

How the results depend on the processing

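The counts of genes that rose and fell kept within 1.5 times of the main counts, with 1 exception: 2782 genes fell without the WT N2B27 pair. Over the settings with all 8 libraries, 3491 to 6014 genes rose and 3220 to 4437 fell, and the N2B27 libraries alone gave 4019 and 3452. Leaving out a library or pair gave 3603 to 4104 rises and 2782 to 3776 falls. The block was the genotype: with no replicate block 4845 rose and 4244 fell, and 394 and 485 genes changed more upward and more downward in N2B27 than in KSR. The difference from KSR depended on the settings: the upward count was 23 with no filter on low values, 419 when scaled to a common sum and 0 to 314 with libraries left out, and the downward count was 23 with no filter and 0 to 225 with libraries left out. The cause was not tested, but leaving out a pair leaves 1 residual degree of freedom. No direction of a named gene's change that passed was reversed in any of these settings.

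Of the genes said to rise or fall, some lost their call without 1 library. Without the WT day 0 library these were Acaca, Ccnd1, Chac1, Dip2c, Dnmt3b, Egr3, En2, Eomes, Esrp1, Esrp2, Fgf5, Gad1, Grb10, Hbb-bh1, Hes1, Hesx1, Hmga1, Lama1, Lama5, Ldha, Lefty1, Neurog2, Pax2, Psph, Shh, Slc18a3, Sox2, Stmn2, Thy1 and Zscan4f. Without the WT day 6 library they were Ccnd1, Dip2c, Dnmt3b, Esrp1, Fgf5, Grb10, Hesx1, Hmga1, Ldha, Psph, Sox2, Tfr2, Thy1 and Zscan4f. Without the KO day 0 library they were Ccnd1, Egr3, En2, Eomes, Esrp1, Fgf5, Gad1, Grb10, Hbb-bh1, Ldha, Lefty1, Ngfr, Pax2, Pdk1, Pgk1, Rarb, Stmn2, Tfr2, Thy1 and Zscan4f. Without the KO day 6 library they were Acaca, Ccnd1, Dnmt3b, En2, Eomes, Esrp2, Gad1, Hbb-bh1, Hes1, Hesx1, Ldha, Lefty1, Mki67, Pdk1, Pgk1, Rarb, Stmn2, Thy1 and Zscan4f.

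List medians kept their sign when scaled to a common sum except those of the steroid hormone, bone morphogenetic protein and p53 lists, which went from -0.03, -0.06 and -0.08 to 0.14, 0.13 and 0.15. FPKM without read numbers gives no measure of how precise low values are, and genes under 1 FPKM were not tested. With 2 libraries a side, a change that missed the threshold is not shown to be absent.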

Other observations

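Of 20 selenoprotein genes tested, selenium being a usual part of N2 supplement, 8 rose and 5 fell, beside 29.7% and 26.2% of all tested genes. Their median change was 0.27 in N2B27 and 0.44 in KSR. The N2B27 median was 0.09 without the KO day 6 library, 0.17 without the KO day 0 library and 0.50 when scaled to a common sum. The plasma selenium carrier Selenop went from 0.442 and 0.329 to 8.32 and 6.49 FPKM and Selenon rose by 3.66, while the peroxidases Gpx4, which protects membranes, and Gpx1 fell by 1.99 and 1.88 on the log2 scale. Of 11 fatty acid synthesis genes 5 rose (3 without the WT day 0 or the KO day 6 library) and 4 fell: the desaturase Fads2 and the carboxylase Acaca rose by 1.21 and 1.0, and Me1 and Srebf1 fell by 1.16 and 0.87, with Fasn and Acly not passing. Of 8 targets and regulators of bone morphogenetic protein signalling 3 rose and 1 fell, beside the same shares of all tested genes. Id2 went from 1.29 and 1.64 to 121 and 126 FPKM and Id1 from 4.04 and 3.59 to 36.3 and 51.3. Both were high at day 6 in each genotype, and the inhibitor Smad7 fell by 2.31.

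Among 13 p53 target genes 5 rose and 3 fell, beside 29.7% and 26.2% of all tested genes. Their median of -0.08 became 0.15 when libraries were scaled to a common sum. The rises were 2 without the WT day 0 library and 3 without any 1 of the other N2B27 libraries. Trp53 itself fell by 1.16, and Pmaip1 rose by 1.40. Of 16 noncoding RNA genes 8 rose and 2 fell: the miR-124 host Mir124-2hg went from 0 and 0 to 56.5 and 29.3 FPKM and Miat from 0.138 and 0.07897 to 62.2 and 30.2, and the paraspeckle RNA Neat1 fell from 32.1 and 69.2 to 3.07 and 1.53.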
